A study of Peniophora incarnata with 12 samples.

Results

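The genes described here are named after the enzymes particular to the glyoxylate cycle, in Peniophora incarnata, a white-rot basidiomycete that decays wood. They were taken by gene ID and by the names given with the data, and they number 4 of 16059 genes: the isocitrate lyases ACU-7 (A18288), ICL1 (A09090) and ICL1 (A06133), and the malate synthase acuE (A01812). The names are those of the best database match in other fungi, and whether the proteins have the named activities was not tested. A further gene named ICL1 and described as isocitrate lyase, A19027, was not among the genes chosen. It is given below for comparison. No other gene of the table was described as malate synthase.

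Wild type strain T-7 had been grown for 30 days at 28 °C in the dark without shaking, on solid media of powdered poplar or Chinese fir wood or powdered straw of rice, or on the control medium PDA (potato dextrose agar). Mycelium of each of the 4 groups was sampled as 3 libraries labelled biological replicates, and poly(A) RNA was sequenced with a stranded kit. No group carried a gene deletion or a transgene, and no other agent had been added. All groups share 1 strain and 1 time point, and each plant class is represented by a single material.

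The glyoxylate cycle is a shortened form of the citric acid cycle. Isocitrate lyase splits isocitrate into succinate and glyoxylate, and malate synthase joins the glyoxylate to acetyl-CoA to give malate, so that the steps releasing carbon dioxide are bypassed. Fungi use the cycle to make sugars and organic acids from acetate and fatty acids, and in wood-decay fungi it has been linked to the making of oxalate.

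The values are FPKM, fragments scaled to the length of the gene model and to the reads of the library. The libraries held 23398461 to 31132066 reads, and the 4 genes were covered by between 183 reads (A06133 on Chinese fir wood, replicate 3) and 118301 reads (acuE on PDA, replicate 3) per library. For a gene of median coding length 1 FPKM stood for 33.1 to 44.0 reads. Tests are limma tests on log2(FPKM + 1) over 13974 genes with Benjamini-Hochberg adjustment, and a gene was called changed at an adjusted p under 0.05 with a log2 fold change of at least 1 in size. All fold changes are on the log2(FPKM + 1) scale, which understates the change of genes with low FPKM. In RNA of a whole mycelium, fewer hyphae expressing a gene and less RNA per hypha cannot be told apart. The 3 contrasts with PDA share the same control libraries.

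The libraries of poplar wood differed most from each other. On the log2 scale the median over genes of the SD among them was 0.46, whereas it was 0.15 for PDA, 0.18 for rice straw and 0.19 for Chinese fir wood. The fit gives each gene 1 spread for all groups, so this spread enters every comparison: in a fit without poplar wood the SE of a group difference was 0.12 for ACU-7 and 0.28 for acuE, against 0.48 and 0.70 with it. PDA replicate 2, Chinese fir wood replicate 1 and rice straw replicate 3 lay near a weighted mixture of the other libraries of their group, with a chi-square per gene of 4.53 to 7.11 against 26.7 to 454 for the other 9 libraries. They are called the in-between libraries, and results that changed without them are given both ways. Leaving them out leaves 2 libraries each on PDA, Chinese fir wood and rice straw, and SEs rose. For A09090 on Chinese fir wood against PDA the SE went from 0.42 to 0.61, while the difference went from 1.40 to 1.41. Of the 12 values of the 4 genes in these 3 libraries, 9 lay between those of the other replicates. Over all tested genes 58.2% to 64.8% did so in these libraries. In poplar wood replicate 2, with a chi-square per gene of 175, 57.9% did.

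The coding lengths of the 4 gene models, worked back from the FPKM steps, were unequal. ACU-7 had 3402 bp, acuE 1623 bp, A09090 1086 bp and A06133 915 bp, and A19027 also had 915 bp. FPKM divides by this length, so every comparison of levels between genes below is per length and rests on these models. Whether the models are complete, or the long one joins more than 1 gene, was not tested, and either would change the shares and the order of levels between the genes. Differences of 1 gene between groups do not depend on its length.

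ACU-7 was abundant on PDA and rice straw and low on both woods. It stood at 968, 1038 and 1119 FPKM in PDA replicates 1, 2 and 3, and at 925, 959.6 and 961 FPKM on rice straw. On Chinese fir wood it stood at 138, 120 and 152 FPKM, and on poplar wood at 17.5, 107 and 25.3 FPKM. No wood library overlapped any PDA or rice straw library, and the poplar wood libraries all lay below those of Chinese fir wood. In PDA replicate 3 it was the gene of rank 73 by FPKM, and in poplar wood replicate 1 it was of rank 4866.

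The group means of ACU-7 ran from 1042 ± 75.6 FPKM on PDA over 949 ± 20.8 on rice straw and 137 ± 16.1 on Chinese fir wood to 50.03 ± 49.77 on poplar wood (SD, n = 3 each). PDA and rice straw, neighbours in this order, differed by -0.13 (limma, SE 0.48, adjusted p = 0.851), and every rice straw library lay below every PDA library in the deposited FPKM. Under median-of-ratios scaling the difference was 0.16, also not called. Against rice straw, ACU-7 fell by 4.66 on poplar wood (limma, SE 0.48, adjusted p = 1.52e-05) and fell by 2.79 on Chinese fir wood (SE 0.48, adjusted p = 0.000902). Between the woods the log2 difference of poplar wood from Chinese fir wood was -1.87, a called fall (limma, SE 0.48, adjusted p = 0.00846). That last call was lost in a fit of the 2 woods alone (limma, adjusted p = 0.0595) and without the in-between libraries (-1.86, adjusted p = 0.065). With array weights, which weight libraries by their spread, the difference shrank to -0.36 (SE 0.06) and was not called. That value is close to the difference between 2 single libraries, poplar wood replicate 2 and Chinese fir wood replicate 1 (centred log2 values of -1.30 and -0.94). Array-weighted results, here and below, thus lean on few libraries. The difference between the woods ranged from -2.64 without poplar wood replicate 2 to -1.36 without poplar wood replicate 1.

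Malate synthase was the most abundant of the 4 genes on PDA and followed the order of ACU-7. acuE stood at 2253, 2570.1 and 2851 FPKM in PDA replicates 1, 2 and 3, which placed it at ranks 13, 12 and 11 among all genes. On rice straw it stood at 2119, 1654 and 1943 FPKM, ranks 39, 49 and 40. On Chinese fir wood it stood at 265, 385 and 155 FPKM, and on poplar wood at 21.9, 326 and 113 FPKM. PDA lay above rice straw and both lay above every wood library, while the woods overlapped.

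The group means of acuE were 2558 ± 299 FPKM on PDA, 1905 ± 235 on rice straw, 268 ± 115 on Chinese fir wood and 154 ± 156 on poplar wood. PDA and rice straw differed by -0.43 (limma, SE 0.70, adjusted p = 0.661), and the woods differed by -1.41 (SE 0.70, adjusted p = 0.126; 0.30 with array weights), so neither pair of neighbours passed the test. Against rice straw, acuE fell by 4.32 on poplar wood (SE 0.70, adjusted p = 0.000406) and fell by 2.91 on Chinese fir wood (SE 0.70, adjusted p = 0.00738). The second of these was not called without the in-between libraries (-2.93, adjusted p = 0.0914). The fall on poplar wood against PDA was -3.72 without poplar wood replicate 1, the lowest library, and -5.64 without replicate 2, the highest. The difference between the woods moved likewise, from -0.39 without poplar wood replicate 1 to -2.30 without replicate 2, where it was called.

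The ratio of malate synthase to ACU-7 did not differ detectably between the groups. The log2 ratio of acuE to ACU-7, each as FPKM + 1, was 1.29 ± 0.07 on PDA, 0.998 ± 0.206 on rice straw, 0.88 ± 0.83 on Chinese fir wood and 1.34 ± 0.93 on poplar wood. The difference of plant materials from PDA was -0.22 (exact two-sided permutation over the 220 splits into 9 and 3 libraries, p = 0.586). An exact permutation over all 369600 assignments to 4 groups gave p = 0.769. Within each wood the ratio of single libraries ranged widely, from 0.03 to 1.68 on Chinese fir wood and from 0.31 to 2.11 on poplar wood.

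**Figure D1:**
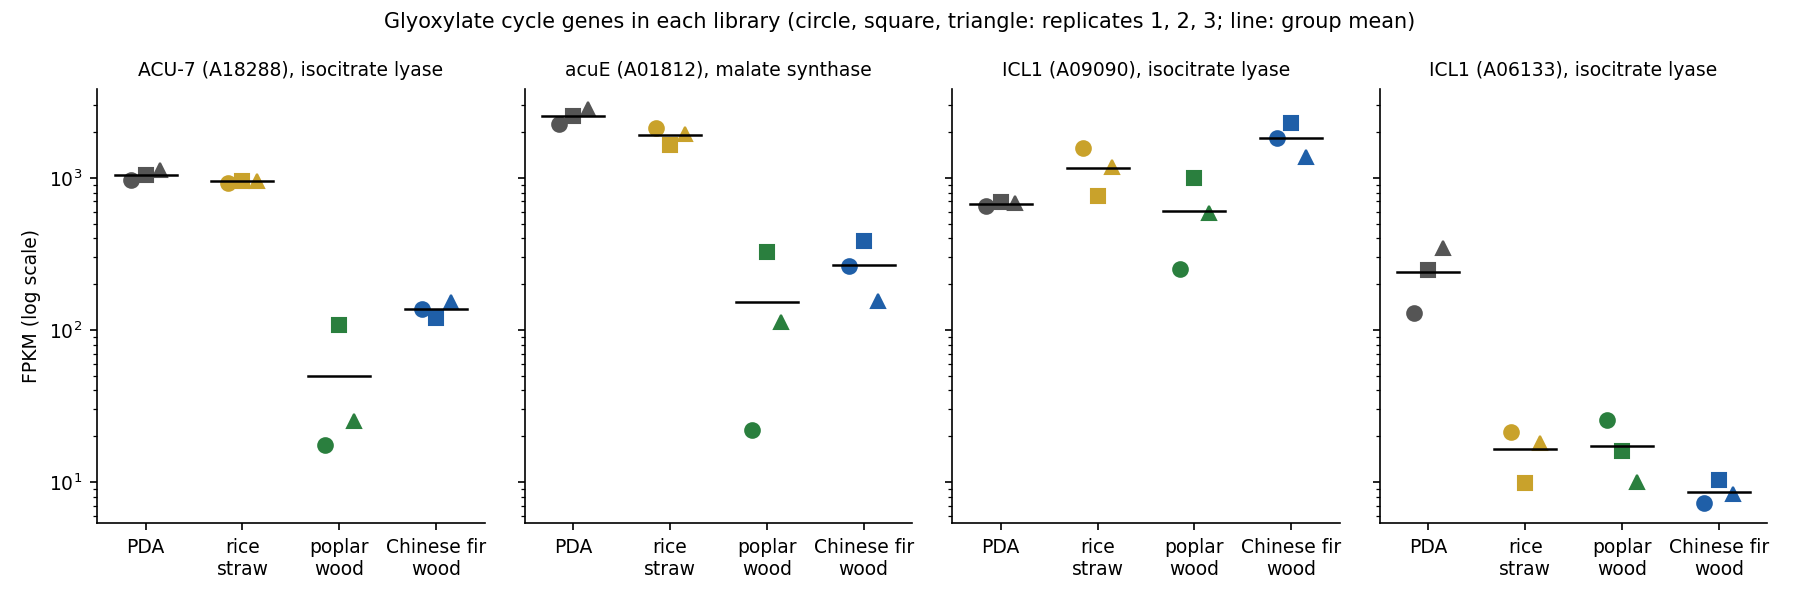
FPKM of the 4 glyoxylate cycle genes in each of the 12 libraries on a logarithmic axis, with 1 panel per gene, symbols for replicates 1, 2 and 3, and a line at each group mean. ACU-7 and acuE sit high on PDA and rice straw and low on both woods, ICL1 (A09090) is highest on Chinese fir wood, and ICL1 (A06133) is high on PDA alone.

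ICL1 (A09090), the second isocitrate lyase, took another course and was highest on Chinese fir wood. It stood at 654, 691 and 686 FPKM in PDA replicates 1, 2 and 3, and at 1829.7, 2284 and 1381 FPKM on Chinese fir wood. On rice straw it stood at 1572, 762 and 1172 FPKM, and on poplar wood at 252, 991 and 586 FPKM. All Chinese fir wood and rice straw libraries lay above all PDA libraries, and poplar wood lay on both sides of PDA.

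The means of A09090 ran from 1831 ± 451 FPKM on Chinese fir wood over 1169 ± 405 on rice straw and 677 ± 19.9 on PDA to 609.9 ± 370.3 on poplar wood. It was the only one of the 4 genes whose mean was higher on a plant material than on PDA, with a rise of 1.40 on Chinese fir wood (limma, SE 0.42, adjusted p = 0.0153). That call ended without Chinese fir wood replicate 2 (1.23, adjusted p = 0.058), under quantile normalisation (1.02, adjusted p = 0.0723) and without the in-between libraries (1.41, adjusted p = 0.121). The excess on rice straw was 0.73 (adjusted p = 0.197), and 0.73 with an adjusted p of 0.0338 in a fit without the poplar wood group, still under the fold threshold. The other neighbours in the order did not differ by the call rule either: Chinese fir wood exceeded rice straw by 0.68 (adjusted p = 0.235), and poplar wood differed from PDA by -0.36, which turned to 0.17 without poplar wood replicate 1 and to 0.52 with array weights. Poplar wood differed from rice straw by -1.08 (adjusted p = 0.0508), which was called with the filter at 5 FPKM (adjusted p = 0.0483), with median-of-ratios scaling (-1.15, adjusted p = 0.0337), with voom (-1.09, adjusted p = 0.0464), and without poplar wood replicate 2 (-1.54) or rice straw replicate 2 (-1.36). Chinese fir wood and poplar wood did differ, the log2 difference of poplar wood from Chinese fir wood being -1.76 (limma, SE 0.42, adjusted p = 0.00582). It was -1.75 with an adjusted p of 0.0545 without the in-between libraries, and -0.88 with array weights, neither called.

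ICL1 (A06133) had the lowest mean of the 4 genes in each group and was the only one called lower on all 3 plant materials. It stood at 130, 248 and 345 FPKM in PDA replicates 1, 2 and 3. On rice straw it stood at 21.3, 9.82 and 18.1 FPKM, on poplar wood at 25.6, 16.1 and 9.98 FPKM, and on Chinese fir wood at 7.23, 10.3 and 8.36 FPKM. Every PDA library lay above every library on plant material, and the plant materials overlapped each other. The lowest PDA library was replicate 1, and leaving out single libraries kept the call in each contrast with PDA.

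Against PDA, A06133 fell by 3.71 on poplar wood (limma, SE 0.40, adjusted p = 2.71e-05), fell by 4.55 on Chinese fir wood (adjusted p = 4.76e-06) and fell by 3.75 on rice straw (adjusted p = 3.37e-05). The means were 241 ± 108 FPKM on PDA, 17.2 ± 7.86 on poplar wood, 16.4 ± 5.91 on rice straw and 8.64 ± 1.56 on Chinese fir wood. Among the plant materials no difference passed the test. Poplar wood differed from rice straw by 0.04 (adjusted p = 0.945) and from Chinese fir wood by 0.84 (adjusted p = 0.113), and Chinese fir wood from rice straw by -0.80 (adjusted p = 0.147). The first of these turned to -0.020 under median-of-ratios scaling and -0.11 with array weights, and array weights called the others (1.04 and -1.16). The array-weighted fit leaned on few libraries, as described for ACU-7.

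The remaining gene named ICL1, A19027, had the same coding length as A06133 and a lower level. It too was called lower on all 3 plant materials than on PDA. It stood at 22.5, 50.8 and 77.2 FPKM in PDA replicates 1, 2 and 3, and at 0.776 to 5.04 FPKM in the 9 libraries on plant material. For both genes replicate 1 was the lowest PDA library and replicate 3 the highest. Its log2 fold changes were -3.16 on poplar wood, -4.54 on Chinese fir wood and -3.99 on the straw (limma, adjusted p = 6.97e-05, 3.89e-06 and 1.76e-05). It was higher on poplar wood than on Chinese fir wood by 1.37 (limma, adjusted p = 0.0145) with no overlap, where A06133 was not called, and the difference between the genes was not tested. Whether reads were shared between these genes by the authors' counting cannot be told from FPKM, so the values of both are uncertain to that extent.

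Counted over the 4 genes, 0 were higher and 3 lower on poplar wood than on PDA, where 25.4% of all tested genes were called, 8.3% higher and 17.1% lower. On Chinese fir wood 1 was higher and 3 were lower, against 30.5% of all tested genes called, 5.91% higher and 24.5% lower. On rice straw 0 were higher and 1 lower, against 20.9% of all tested genes, 6.81% higher and 14.1% lower. Poplar wood had 2 of the 4 genes lower than Chinese fir wood and 0 higher, against 24.2% of all genes called, 17.5% higher and 6.73% lower. It had 2 lower than rice straw and 0 higher, against 28.8% of all genes called, 14.4% higher and 14.4% lower. Chinese fir wood had 2 lower than rice straw and 0 higher, against 19.9% of all genes called, 5.7% higher and 14.2% lower. The medians of the 4 log2 fold changes against PDA were -4.23 on poplar wood, -3.13 on Chinese fir wood and, for rice straw, -0.28. Those of all tested genes were -0.18, -0.51 and -0.25. In the F test among the 4 groups all 4 genes passed, with adjusted p-values of 1.18e-05 for ACU-7, 0.000222 for acuE, 8.61e-06 for A06133 and 0.0102 for A09090, but so did 74% of all tested genes. Without the in-between libraries the adjusted p of A09090 was 0.0941.

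**Figure D2:**
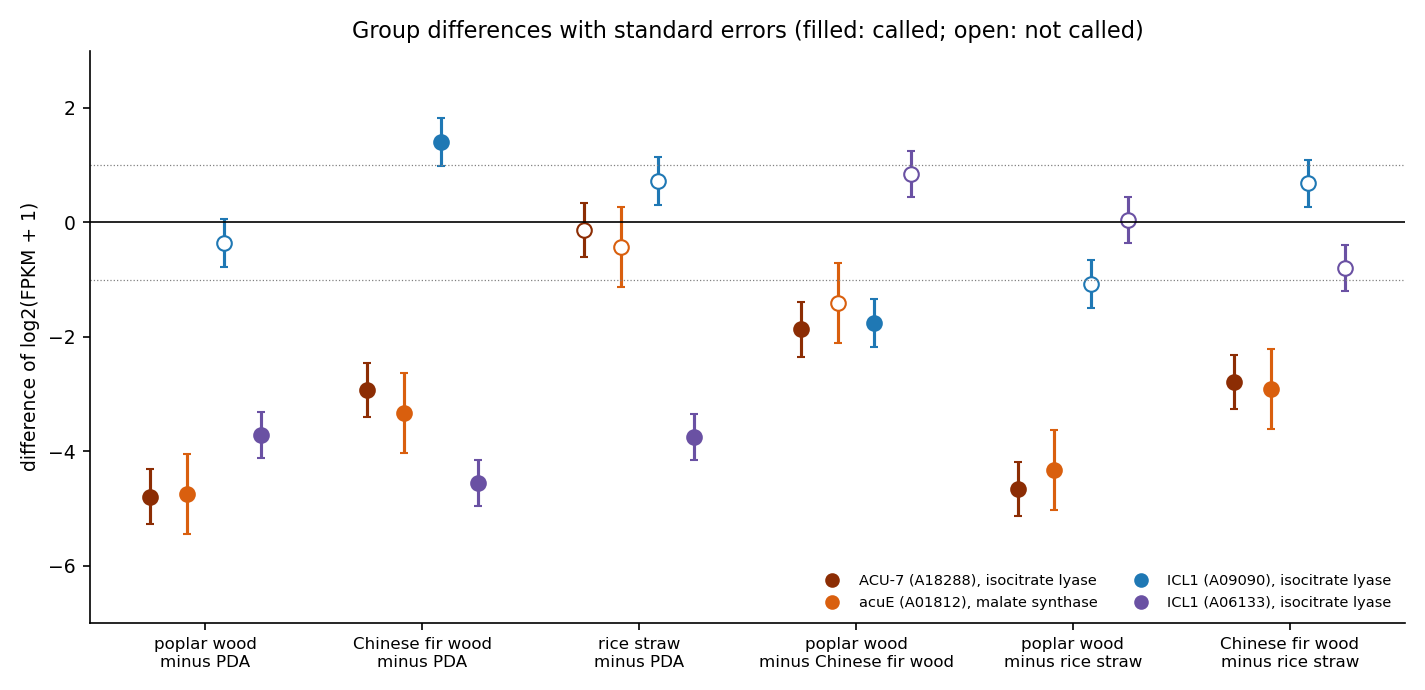
Differences of log2(FPKM + 1) between groups for the 4 genes with limma standard errors, for the 6 pairs of groups; filled symbols are called at an adjusted p under 0.05 and an absolute difference of at least 1 (dotted lines), open symbols are not. ACU-7 and acuE lie together in every pair, A09090 lies above zero on Chinese fir wood and rice straw against PDA, and A06133 is below -3 in each contrast with PDA.

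Since separate fold changes do not show that genes responded differently, the ratios between the genes were tested over libraries, 16 tests in all with Benjamini-Hochberg adjustment. The log2 ratio of A09090 to ACU-7 was -0.62 ± 0.08 on PDA, 0.24 ± 0.55 on rice straw, 3.71 ± 0.53 on Chinese fir wood and 3.82 ± 0.64 on poplar wood. On PDA each library had more ACU-7 than A09090, and on both woods each library had more A09090. On rice straw, replicates 1 and 3 had more A09090 and replicate 2 had more ACU-7. The ratio was higher in 9 of 9 libraries on plant material than in any on PDA, by 3.21 on average (exact permutation, p = 0.00455, the smallest that 220 splits can give, adjusted p = 0.00661). Among the 4 groups it differed with an adjusted p of 0.00291 (exact permutation).

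A09090 also moved apart from malate synthase. The log2 ratio of A09090 to acuE was -1.91 ± 0.14 on PDA, -0.76 ± 0.34 on rice straw, 2.83 ± 0.29 on Chinese fir wood and 2.48 ± 0.94 on poplar wood (exact permutation among the 4 groups, adjusted p = 0.00208). The ratio of A06133 to A09090 fell from -1.60 ± 0.67 on PDA to -6.07 ± 0.11 on rice straw, -4.95 ± 1.47 on poplar wood and -7.55 ± 0.31 on Chinese fir wood (exact permutation, p = 6.49e-05, the smallest possible, adjusted p = 0.00104).

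The ratio of A06133 to ACU-7 did not separate plant materials from PDA (exact permutation, adjusted p = 0.392), but it differed among the 4 groups (adjusted p = 0.00291). It was -2.21 ± 0.61 on PDA, -5.84 ± 0.57 on rice straw, -3.84 ± 0.37 on Chinese fir wood and -1.13 ± 1.60 on poplar wood, where the 3 libraries lay at 0.52, -2.66 and -1.26. Rice straw was the medium on which A06133 was called lower than on PDA and ACU-7 was not. The ratio of A06133 to acuE likewise differed among the 4 groups (adjusted p = 0.00661; 0.101 without the in-between libraries) and not between plant materials and PDA (adjusted p = 0.436).

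The make-up of the summed FPKM of the 3 genes named isocitrate lyase differed by medium. Whether all 3 act as isocitrate lyases was not tested. Of the summed FPKM of the 3 isocitrate lyases, A09090 made up 37.3%, 34.97% and 31.9% in PDA replicates 1, 2 and 3, and 62.4%, 44.0% and 54.5% on rice straw. On Chinese fir wood it made up 92.6%, 94.6% and 89.6%, and on poplar wood 85.4%, 88.9% and 94.3%. The libraries of the woods overlapped, and both lay above rice straw, which lay above PDA. The share rose from 34.7% ± 2.73 on PDA to 78.5% on average over the 9 libraries on plant material (exact permutation, adjusted p = 0.00661, and 0.00208 among the 4 groups). A06133 made up 7.43% to 16.1% on PDA, 8.67% in poplar wood replicate 1, and 0.366% to 1.60% in the other 8 libraries.

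The sum itself was 1959.7 ± 199.2 FPKM on PDA, 2133 ± 394 on rice straw, 1977 ± 436 on Chinese fir wood and 677 ± 413 on poplar wood. On Chinese fir wood the libraries summed to 1975, 2414 and 1541 FPKM, overlapping the 1753, 1977 and 2149.9 FPKM of PDA, while on poplar wood they summed to 295, 1115 and 622 FPKM and lay below PDA. The overlap is that of the deposited FPKM and depends on the scaling. Median-of-ratios scaling divides by at most 0.81964 for Chinese fir wood libraries and by at least 1.19576 for those of PDA. It thus raises the sum on Chinese fir wood relative to PDA, and a difference in the sum was not tested. The sum relative to malate synthase differed by medium. The log2 ratio of summed isocitrate lyases to acuE was -0.38 ± 0.02 on PDA, 0.15 ± 0.09 on rice straw, 2.64 ± 0.97 on poplar wood and 2.95 ± 0.33 on Chinese fir wood. It was higher on plant materials than on PDA by 2.30 (exact permutation, adjusted p = 0.0303, and 0.00571 among the 4 groups). Without the in-between libraries the difference was 2.41 with an adjusted p of 0.0808 (exact permutation).

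**Figure D3:**
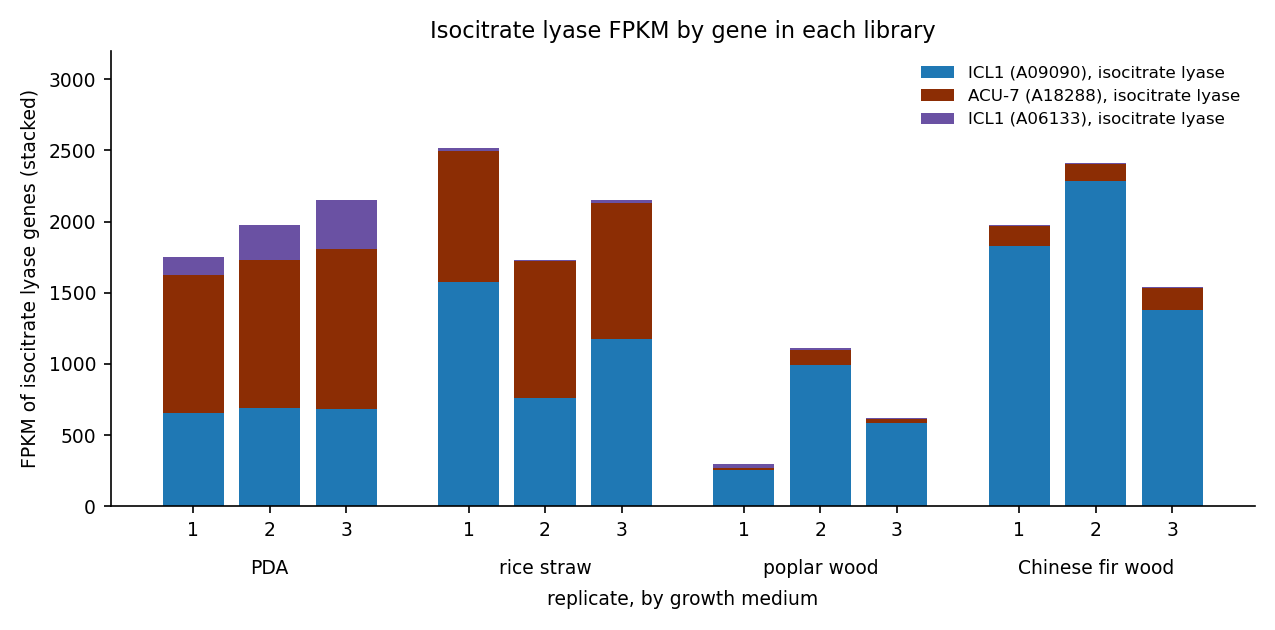
FPKM of the 3 isocitrate lyase genes stacked for each of the 12 libraries, grouped by growth medium, with replicates 1 to 3 along the axis. A09090 makes up 31.9% to 37.3% of the sum on PDA and 85.4% to 94.6% on the woods, and the sum is smallest in poplar wood replicate 1 at 295 FPKM.

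The rest of the pathway was described from lists of genes matched by their descriptions, each as a count of called genes beside the share of all tested genes called in the same direction. Those shares are 8.3% higher and 17.1% lower for poplar wood, 5.91% and 24.5% for Chinese fir wood, and 6.81% and 14.1% for rice straw. Of all genes called, 32.6%, 19.4% and 32.6% were higher, and with median-of-ratios scaling 47.2%, 51.7% and 54.8%, so that the balance turned for Chinese fir wood and rice straw. Median-of-ratios scaling shifted the median log2 fold change of all genes from -0.18, -0.51 and -0.25 to 0.02, -0.01 and -0.01, and counts that changed with it by over 1.5 times are given beside the list.

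The steps shared by the glyoxylate and citric acid cycles were represented by 12 tested genes for citrate synthase, aconitase and malate dehydrogenase. Falls were called for 5 on poplar wood, 5 on Chinese fir wood and 4 on the straw. In each comparison 4 of them were same-named pairs with near-equal values (MDH1 A14908 and A18679, and oryE A18879 and A19234), and whether reads were split between copies cannot be told. None (0) rose in the limma calls, and median-of-ratios scaling gave 1 rise, on Chinese fir wood. The citrate synthase cit-1 (A15933), which makes the citrate that enters both cycles, stood at 116, 125 and 124 FPKM on PDA and at 111, 120 and 119 FPKM on rice straw. On poplar wood it stood at 3.42, 11.6 and 9.52 FPKM and on Chinese fir wood at 9.58, 8.06 and 13.0 FPKM. Its falls against PDA were -3.88 on poplar wood and -3.48 on Chinese fir wood (limma, SE 0.32, adjusted p = 4.38e-06 and 6.64e-06) and differed by -0.07 on rice straw (adjusted p = 0.893). The more abundant cit-1 (A19197) did not pass the test, with -0.62 on poplar wood, 0.04 on Chinese fir wood and, for rice straw, 0.19. Its means ran from 241 ± 43.4 FPKM on poplar wood to 417 ± 13.5 on rice straw.

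The citric acid cycle steps that the glyoxylate cycle bypasses gave a mixed picture. Of 9 tested genes, 1 rose and 3 fell on poplar wood, 2 rose and 4 fell on Chinese fir wood, and 2 rose and 1 fell on rice straw. Under median-of-ratios scaling no gene of this list was called lower on Chinese fir wood (0) or on rice straw (0), and without the in-between libraries 0 were called higher on each, 1 lower on poplar wood and 0 lower on the straw. The oxoglutarate dehydrogenase kgd1 (A17376) stood at 34.1, 32.5 and 33.6 FPKM on PDA and at 7.32, 6.77 and 6.86 FPKM on poplar wood, a log2 fold change of -2.11 (limma, SE 0.19, adjusted p = 8.89e-06). The more abundant KGD1 (A17195), of the same description, was not called on poplar wood (-0.45, limma, adjusted p = 0.106). It was called lower on Chinese fir wood (-1.17) and rice straw (-1.07). The succinate-CoA ligase subunit SCSB (A04296), the most abundant gene of the list, stood at 552, 638 and 712 FPKM on PDA and at 2899, 2242 and 2615 FPKM on rice straw. It was 2.03 higher on rice straw (SE 0.42, adjusted p = 0.00284), and every rice straw library lay above every PDA library. On poplar wood SCSB was called lower (-1.12, limma, adjusted p = 0.0487), with libraries overlapping those of PDA, and on Chinese fir wood it was not called (-0.51).

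From succinate to malate, 10 genes for succinate dehydrogenase, its assembly and fumarase were tested. Falls were called for 1 on poplar wood, 2 on Chinese fir wood and 2 on the straw. None (0) rose; under median-of-ratios scaling 0 fell on either wood and 1 rose on Chinese fir wood. SDH2 (A14436), the iron-sulfur subunit of succinate dehydrogenase and the most abundant, had log2 fold changes of -0.84, -0.87 and -0.71, under the fold threshold, with group means of 227 ± 26.3 FPKM on PDA, 128 ± 27.3 on poplar wood, 131 ± 52.7 on Chinese fir wood and 138 ± 5.79 on the straw. The assembly factor A06513 fell by 1.52 on Chinese fir wood (limma, SE 0.19, adjusted p = 6.56e-05) and fell by 1.30 on rice straw.

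Genes that supply acetyl-CoA, the substrate of malate synthase, were largely lower on the woods. Of 10 tested genes for acetyl-CoA synthetase, carnitine acetyltransferase and acetate kinase, 7 fell on poplar wood, 6 on Chinese fir wood and 2 on the straw, where 2 others rose (1 without the in-between libraries). Median-of-ratios scaling gave 1 rise on Chinese fir wood, against 0 in the limma calls, and 3 on the straw. Their median log2 fold changes were -2.44, -2.03 and -0.02. ACS-1 (A00011), which activates acetate, stood at 101, 85.1 and 69.2 FPKM on PDA and at 44.8, 50.7 and 49.9 FPKM on rice straw. It stood at 4.95, 16.1 and 6.26 FPKM on poplar wood and at 13.2, 11.7 and 13.8 FPKM on Chinese fir wood, log2 fold changes of -3.24 and -2.62 (limma, SE 0.32, adjusted p = 1.44e-05 and 5.23e-05). CAT2 (A11195), a carnitine acetyltransferase, was not called, with -0.53, -0.35 and -0.69. Genes sharing its name were split. A03328 was called lower in each contrast with PDA (-2.57, -2.10 and -1.72), and so was A17640 (-2.72, -2.48 and -2.07). A01601 was not called, with -0.88, -0.76 and 0.44.

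Most genes of fatty acid beta-oxidation, which releases acetyl-CoA in peroxisomes and mitochondria, were lower on all 3 materials. Of 25 tested genes 18 fell on each of the 3 materials, and 0 rose in the limma calls; without the in-between libraries 9 were called lower on rice straw, and median-of-ratios scaling gave 1 rise on Chinese fir wood. The medians were -1.95, -1.92 and -1.32. The thiolase POT1 (A08701), which performs the last step, had 1207 ± 265 FPKM on PDA, 318 ± 65.5 on poplar wood, 394 ± 32.1 on Chinese fir wood and 724 ± 107 on the straw. The acyl-CoA oxidase POX1 (A15408), which performs the first, stood at 96.1, 96.3 and 94.5 FPKM on PDA and at 6.49, 8.95 and 6.66 FPKM on Chinese fir wood, a log2 fold change of -3.54 (limma, SE 0.29, adjusted p = 2.74e-06). On rice straw POX1 (A15408) stood at 56.9, 46.1 and 47.0 FPKM, -0.93 against PDA, under the fold threshold. Other genes named POX1 differed from it. A16337 was called lower on all 3 materials (-2.65, -3.26 and -1.24). A03209 was 0.90 higher on Chinese fir wood (limma, adjusted p = 0.00661), under the fold threshold, with -0.69 on poplar wood and -0.38 on rice straw. A09293 was called lower on rice straw alone (-3.32), with -0.23 on poplar wood and -1.48 on Chinese fir wood.

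Downstream of the cycle, genes of gluconeogenesis and of the replenishing of oxaloacetate split by gene. Of 10 tested, 3 rose and 4 fell on poplar wood, 2 rose and 4 fell on Chinese fir wood, and 3 rose and 2 fell on rice straw, where 0 rose and 1 fell without the in-between libraries. PCK1 (A01951), phosphoenolpyruvate carboxykinase, stood at 464, 553 and 629.6 FPKM on PDA and at 1348, 1481 and 1429 FPKM on rice straw. On poplar wood it stood at 33.7, 102 and 50.8 FPKM and on Chinese fir wood at 136, 110.5 and 161 FPKM. Its log2 fold changes were -3.26 on poplar wood, -2.01 on Chinese fir wood and, for rice straw, 1.38 (limma, SE 0.32, adjusted p = 1.37e-05, 0.000341 and 0.00572), so that it separated rice straw from the woods in the same direction as ACU-7 and acuE (-4.64 and -3.39 against rice straw, both called). The pyruvate carboxylase pyc (A07269) stood at 351, 347 and 338 FPKM on PDA and 5.31, 20.8 and 13.9 FPKM on poplar wood, with log2 fold changes of -4.77, -3.12 and -1.99 on the 3 materials. A further gene named pyc had like values, and reads of such pairs may have been split between copies by the authors' counting.

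Of 13 tested genes for glyoxylate, oxalate and formate metabolism, 5 fell on poplar wood, 4 on Chinese fir wood (1 under median-of-ratios scaling) and 0 on rice straw. None rose in these limma calls; median-of-ratios scaling gave 1 rise, on poplar wood. GPR1 (A03742), named a glyoxylate pathway regulator after a yeast protein, had 472 ± 118 FPKM on PDA, 619 ± 65.3 on rice straw, 174 ± 74.4 on poplar wood and 175 ± 15.7 on Chinese fir wood, log2 fold changes of -1.49 and -1.40 on the woods (limma, SE 0.29, adjusted p = 0.00145 and 0.00183). The formate dehydrogenase FDH1 (A02035), which oxidises formate, fell by 5.61 on Chinese fir wood, from 322, 331 and 333.5 FPKM on PDA to 4.98, 6.89 and 5.55 FPKM (SE 0.44, adjusted p = 2.1e-06). A16047, also named FDH1, was not called in any contrast with PDA. It differed by 1.95 on poplar wood (limma, adjusted p = 0.0507), by -0.98 on Chinese fir wood and, for rice straw, by 0.96. The methylcitrate cycle, which handles propionyl-CoA with a lyase of its own, had 4 tested genes, of which 3 fell on poplar wood, 3 on Chinese fir wood and 1 on the straw (0 under median-of-ratios scaling and 0 without the in-between libraries). PDH1 (A18975), its dehydratase, had -2.40 and -1.63 on the woods (SE 0.17, adjusted p = 1.52e-06 and 1.46e-05). ERT1 (A02087), known in yeast as an activator of gluconeogenesis, was not called, with -0.77, -0.87 and -0.56.

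**Figure D4:**
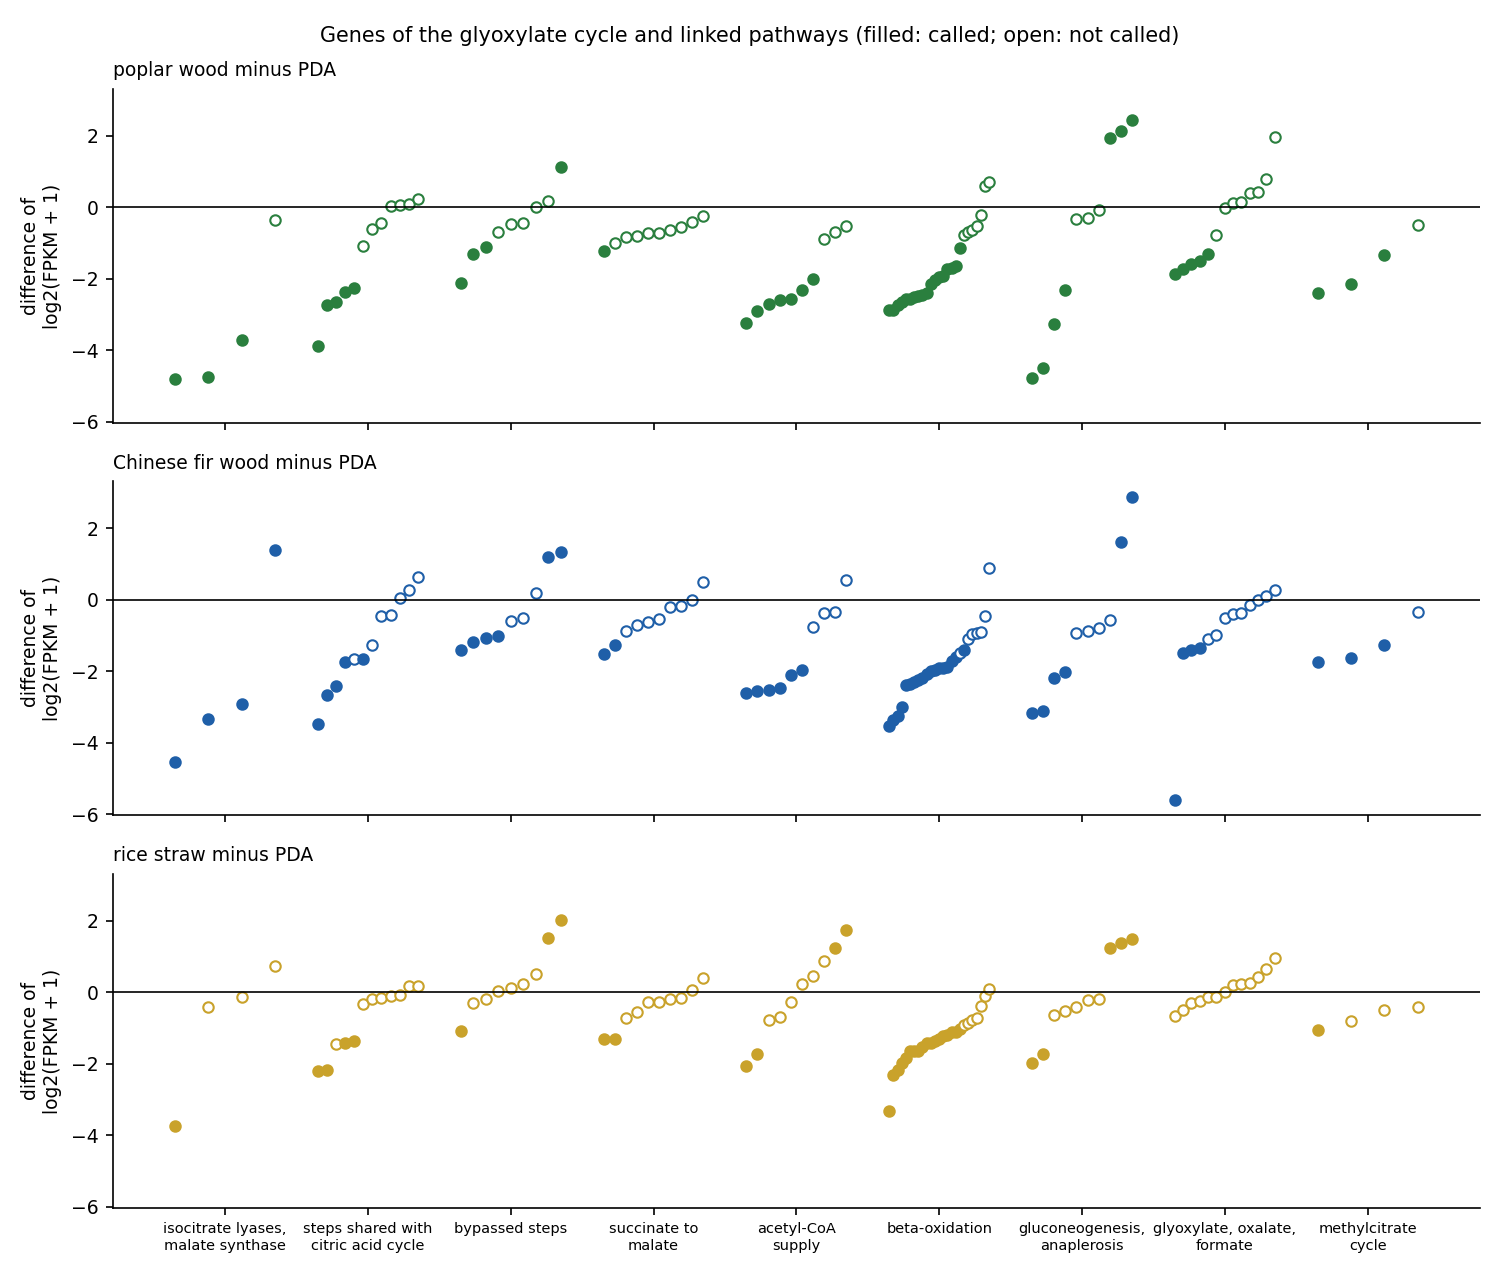
Differences of log2(FPKM + 1) from PDA for each tested gene of the glyoxylate cycle and the linked lists, with 1 row of panels per plant material; filled symbols are called at an adjusted p under 0.05 and an absolute difference of at least 1. Most of the beta-oxidation genes lie below zero, with 18 of 25 called in each row (12 on rice straw under median-of-ratios scaling). The lists of bypassed steps and of gluconeogenesis hold genes on both sides.

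The genes whose profiles over the 12 libraries were most like each enzyme were found by the root mean square (RMS) difference of log2 values, each gene centred on its own mean, among the other 13973 tested genes. This is a description of likeness over libraries that share depth and groups. ACU-7 was the closest of all genes to acuE (RMS 0.55), and acuE ranked 5 for ACU-7. The closest to ACU-7 were both genes named ctpC, a mitochondrial citrate transporter, A08922 (RMS 0.38) and A06810 (RMS 0.40). They had 228 ± 24.2 and 276 ± 22.3 FPKM on PDA and 10.4 ± 4.73 and 14.2 ± 7.11 FPKM on poplar wood. RIM101 (A04452), named after a transcription factor of the pH response (RMS 0.61), and cit-1 (A15933, RMS 0.65) followed. For acuE the list held the same ctpC and cit-1 genes and pyc (A08534, RMS 0.74).

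The isocitrate lyases other than ACU-7 had different neighbours. By rank, ACU-7 stood at 13733 and acuE at 13765 of 13973 genes for A09090, with RMS differences of 2.04 and 2.08. The RMS of the centred values themselves was 2.09 for ACU-7 and 2.15 for acuE, so a gene without any variation would lie about as far. These ranks thus largely reflect how much ACU-7 and acuE vary, and do not by themselves show unlike profiles. A09090's own profile spanned -1.86 to 1.31 around its mean, less than the -3.85 to 2.07 of ACU-7, which makes such differences smaller for genes that vary little. Its closest described genes were both genes named mxr1, a methionine sulfoxide reductase that repairs oxidised methionine, A17808 (RMS 0.47) and A10585 (RMS 0.48), then the syntaxin psy1 (A15892), the hydrolase pyvD (A02831) and DDI1 (A08278). For A06133 the closest gene was the other short ICL1, A19027 (RMS 0.35), followed by the short chain dehydrogenase mpl6 (A01015, RMS 0.44), YHI9 (A16960, RMS 0.47), the oxidoreductase phnG (A17857) and tazHJ (A12127). phnG had 177 ± 34.0 FPKM on PDA and 10.3 ± 0.92 FPKM on Chinese fir wood.

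**Figure D5:**
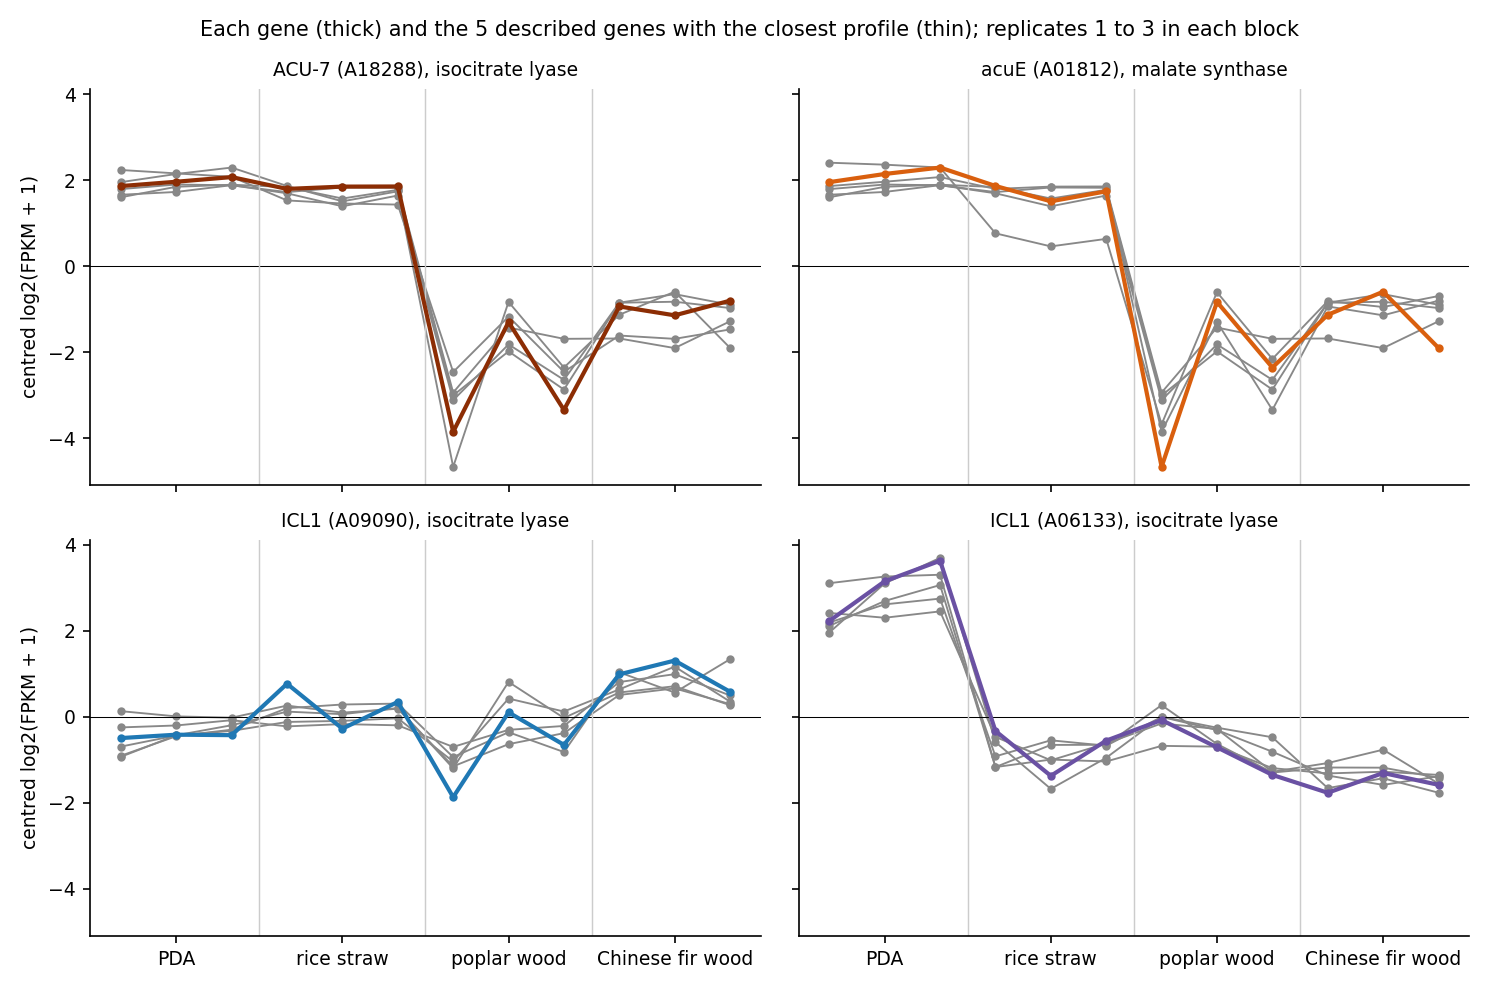
Centred log2(FPKM + 1) of each of the 4 genes (thick line) and the 5 described genes closest to it (thin lines) over the 12 libraries, in blocks of replicates 1 to 3 per growth medium; lines only join the points of a gene. The genes near ACU-7 and acuE drop from rice straw to poplar wood, those near A09090 vary least, and those near A06133 are high in the PDA block alone.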

How the data were processed

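The deposited table held, for 16059 genes, FPKM values that the authors had computed for 12 libraries, with gene names and descriptions. DESeq2, HTSeq, HISAT2 and fastp were used, per the submitters' processing notes, which give here neither their roles nor versions. The genome build and the counting of reads that fit several genes are not given in the sources used here. All per-sample columns were used (0 left out). Gene and protein sequences were not used here.

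Reads and coding lengths were worked back from the steps between FPKM values, since these are fractions of whole reads. The values of 16059 of 16059 genes came out as whole reads (tolerance 0.001), and the median coding length was 1413 bp. The 13974 genes with at least 1 FPKM in at least 3 libraries were tested as log2(FPKM + 1) in 1 limma fit of 4 groups (eBayes with trend, no block), which shares 1 spread per gene. The fit was tried on simulated counts drawn with the same spread in all groups. That trial cannot show how the fit behaves with the wider spread of poplar wood. Ratios, of FPKM + 1, were compared by exact two-sided permutation tests. The split of 9 libraries on plant material from 3 on PDA treats the 3 materials as 1 group. Nothing in the labels ties a replicate number to a shared culture or day, and deviations of same-numbered libraries correlated at -0.19 to 0.33 (median -0.01, 18 pairs), so replicate numbers were not used as pairs. P-values measure the spread between these libraries.

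Named are the 4 genes, the most abundant gene and the called gene with the largest change against PDA in each pathway list, and the 5 described genes nearest to each of the 4. A19027 was named for its description. Some genes that share a name with one of these were added after their values were seen. The 4 genes and all lists were chosen with earlier results of these data known. Alternatives are listed in the closing section. Software was R 4.3.3, limma 3.58.1, Python 3.11.15, scipy 1.17.1, pandas 2.3.3, numpy 2.4.6 and matplotlib 3.10.9.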

Additional observations from a re-analysis of the deposited data

How the results depend on the processing

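Alternatives were a pseudocount of 0.1 or 5, no filter or a filter at 5 FPKM, TPM, median-of-ratios and quantile scaling, a fit of only the groups compared, array weights, no fold threshold, the replicate number as a block, leaving out each library, and leaving out the 3 in-between libraries. Added after seeing the data were voom on the worked-back reads, a fit without poplar wood, and A19027 in the isocitrate lyase sum. For the 4 genes and their ratios, 415 of 436 values kept their direction and side of the threshold under these, and 520 of 528 when 1 library was left out. The cause of the changes was not tested.

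Median-of-ratios scaling turned ACU-7 on rice straw against PDA to 0.16 and A06133 on poplar wood against rice straw to -0.020, neither called, and called A09090 on poplar wood against rice straw (-1.15), as did the filter at 5 FPKM (-1.08) and voom (-1.09). Among all genes called against PDA it moved the higher and lower counts from 1160 and 2396 to 1577 and 1764 on poplar wood, from 826 and 3430 to 1640 and 1534 on Chinese fir wood, and from 952 and 1971 to 1397 and 1152 on rice straw; between the woods they moved from 2439 and 941 to 1347 and 1594, and between Chinese fir wood and rice straw from 797 and 1984 to 1285 and 1372. Array weights gave, on poplar wood against Chinese fir wood, -0.36 for ACU-7 and -0.88 for A09090, which ended both calls, 1.04 for A06133 and 0.30 for acuE, with 0.52 for A09090 on poplar wood against PDA, -0.11 for A06133 on poplar wood and -1.16 on Chinese fir wood against rice straw. Array-weighted values lay near differences between single libraries, poplar wood replicate 2 and the in-between libraries, and so lean on few libraries. A fit of the woods alone gave ACU-7 -1.87. Quantile normalisation gave A09090 1.02 on Chinese fir wood against PDA. Without the in-between libraries, values that lost their call were ACU-7 (-1.86) and A09090 (-1.75) between the woods, A09090 on Chinese fir wood against PDA (1.41) and in the F test (F = 3.80), acuE on Chinese fir wood against rice straw (-2.93), A06133 to acuE among the 4 groups (exact permutation, adjusted p = 0.101) and summed isocitrate lyases to acuE (2.41).

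When single libraries were left out, A09090 ranged from -0.81 to 0.17 on poplar wood against PDA, from 1.23 to 1.59 on Chinese fir wood against PDA and from -1.54 to -0.55 on poplar wood against rice straw. A06133 ranged from 0.52 to 1.16 between the woods and from -0.28 to 0.36 on poplar wood against rice straw, and acuE from -2.30 to -0.39 between the woods. With the replicate number as a block, no call of the 4 genes changed (ACU-7 on poplar wood against PDA -4.80, adjusted p = 5.2e-05; A09090 on Chinese fir wood against PDA 1.40, adjusted p = 0.0229). Counts over all genes fell to 1680 to 2633 per pair of groups with a pseudocount of 5, against 2781 to 4256, and came to 4651 to 7105 with no fold threshold. Without the in-between libraries they were 1419 for rice straw against PDA (2923 with them) and 1380 for Chinese fir wood against rice straw (2781). The 4 genes had at least 183 reads in each library; the limits are 3 libraries per group and the spread on poplar wood.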

Other observations

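Both genes annotated as acetate kinase (A18877 and A19232) had more FPKM on rice straw than on any other medium. A18877 stood at 61.8, 41.8 and 25.7 FPKM in PDA replicates 1, 2 and 3, at 92.0, 96.7 and 103 on rice straw, and at 5.03, 8.40 and 4.66 on poplar wood. Its log2 fold changes against PDA were 1.24 on rice straw and -2.60 on poplar wood (limma, adjusted p = 0.00858 and 5.65e-05). The pair were singled out after their values were seen, their values are alike, and whether reads were split between copies cannot be told.

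The malic enzymes MAE1 A04891 and A16403, which release pyruvate from malate, were higher on all 3 plant materials than on PDA, by 2.15 and 1.95 on poplar wood, 2.89 and 1.63 on Chinese fir wood, and 1.498 and 1.25 on rice straw (limma, all called). A04891 stood at 18.5, 11.4 and 6.18 FPKM on PDA and at 100.3, 45.8 and 147 on Chinese fir wood. These genes were likewise chosen after their values were seen. The other genes named MAE1, A04890 and A16402, went the other way at a few FPKM, with -0.34 and -0.31 on poplar wood, -0.93 and -0.79 on Chinese fir wood and -0.63 and -0.52 on rice straw, none called. Without the in-between libraries no gene of their list was called higher on rice straw (0).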
